A study of Mus musculus with 11 samples.

Results

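The Lin28, Hmga and Igf2bp growth program was examined as 10 mouse genes: Lin28a, Lin28b, Trim71, Hmga1, Hmga2, Igf2bp1, Igf2bp2, Igf2bp3, Mycn and Myc. Members were found by matching the accession of each array probe to these symbols through a RefSeq gene table, which gave 16 probes for the 10 genes, out of 20284 genes that the table could name on the array. All 16 probes passed the filter on dim probes. Of the members, 5 had 1 probe, 4 had 2 probes and Hmga1 had 3, and the brightest probe of a gene gives its main value.

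The study asked which genes set otospheres apart from the tissue they came from and from embryonic stem cells (ESCs). Single-colour arrays had been hybridized with RNA of secondary otospheres (6 arrays), cochlear sensory epithelia (CSE, 3 arrays) and ESCs (2 arrays). CSE was dissected from ICR mice aged 1 day, with 10 mice and 20 cochleae in a preparation, and was freed of the spiral ligament and stria vascularis. Otospheres are floating spheres grown from dissociated CSE of the same strain and age, in serum-free medium with 10 ng/ml bFGF, 50 ng/ml IGF1 and 50 ng/ml heparan sulfate. They were passaged 1 time, with 4 to 5 days of culture on either side of the passage, and hollow spheres were removed by size. The ESCs were the lines G4-2 and D3, of unlabelled strain, at passage 13, kept without feeder cells in 10% serum with LIF. Each line was on 1 array, so the spread of the ESC group includes the difference between lines.

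Lin28a and Lin28b are RNA-binding proteins of early embryonic and fetal tissue that block the maturation of the let-7 microRNAs, which in turn repress the messages of Lin28, Trim71, Hmga2, the Igf2bp genes and the Myc genes. Hmga1 and Hmga2 are small chromatin proteins that bind AT-rich DNA and are high in dividing embryonic cells, and the Igf2bp proteins bind the messages of Igf2, Myc and other growth genes and control their stability and translation. In the cochlea, Lin28b and let-7 are known for setting the time at which progenitors leave the cell cycle and for the loss of the regenerative response of supporting cells after birth.

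The sequences that link the members are those of the let-7 family, taken from RefSeq on build GRCm38.p6. The mature forms bind their targets mainly through the seed, bases 2 to 8, shown here in capitals. The table held 10 let-7 and miR-98 names with this seed, which were picked by having it. Some of them are printed to show how much of the molecule the family shares beyond the seed.
let-7a-5p: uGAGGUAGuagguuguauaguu
let-7b-5p: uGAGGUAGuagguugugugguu
let-7g-5p: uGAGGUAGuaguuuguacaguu
miR-98-5p: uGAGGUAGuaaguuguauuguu
Lin28 proteins bind the precursor hairpin, and the letters GGAG near its loop are a known contact. GGAG, searched on the RNA strand, was found in 9 of 12 let-7 and miR-98 hairpins, and 44.5% of all 1005 hairpins of the table hold it somewhere. The hairpin of let-7k was not among the 12. The let-7g hairpin (chr9:106178840-106178927, plus strand) holds it once, in capitals, and the let-7b hairpin (chr15:85707319-85707403, plus strand) does not hold it.
let-7g hairpin: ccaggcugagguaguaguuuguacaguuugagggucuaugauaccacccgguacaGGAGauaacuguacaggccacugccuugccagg
let-7b hairpin: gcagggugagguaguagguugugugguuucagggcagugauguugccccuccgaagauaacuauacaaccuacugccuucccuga
The arrays measured the messages of the members, not these small RNAs.

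Values below are log2 normalised signals, on which a difference of 1 is a doubling, and they are always listed in the order ESC1 (G4-2) and ESC2 (D3), then the 4 otosphere samples, then CSE1, CSE2 and CSE3. The 4 otosphere samples are the mean of OS1 and OS2, OS3, the mean of OS4 and OS5, and OS6, because OS1 and OS2 differed by 1.03 times and OS4 and OS5 by 0.451 times the noise between spots, where the remaining 17 array pairs of equal group differed by at least 1.87 times, and each was therefore counted as 1 sample. Slide 1 held ESC1, OS1 to OS3, CSE1 and CSE2, and slide 2 held ESC2, OS4 to OS6 and CSE3. Between 55.1% and 71.6% of the spots of an array were well above background. The mean level of 12 pluripotency markers was 13.04 to 13.07 in ESCs and 6.36 to 6.87 in the other samples. For Nanog, 1 of the 12, only the brightest probe was read. Its group means were 8.38 in ESCs, 9.82 in otospheres and 10.03 in CSE, so that probe was not lower outside ESCs. The paper, in contrast, lists Nanog among the genes raised in ESCs alone and did not detect its protein in otospheres. CSE is a dissected tissue and not 1 cell type. It had all 15 hair cell and all 15 supporting cell genes well above background on some array, where otospheres had 14 and ESCs 9 of each. The mean levels of the neuronal, endothelial, macrophage and erythroid lists were at least 10.83, 9.06, 9.30 and 10.75 in CSE. In ESCs they were at most 9.49, 7.63, 6.99 and 7.74. No label says that arrays of a group were separate cultures or litters, so the p-values measure the spread between these samples.

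Lin28a was abundant in ESCs and far lower in otospheres and in CSE. It read 13.68 and 13.70 in ESCs, 7.98, 7.82, 7.93 and 8.33 in otospheres, and 7.63, 7.69 and 8.03 in CSE. The ESC values lie far above all others, and the ranges of otospheres and CSE overlap. Otospheres were lower than ESCs by a log2 difference of -5.67 (SE 0.20, 51.0-fold, limma adjusted p = 5.606e-07) and CSE by -5.91 (SE 0.21, 59.9-fold, adjusted p = 7.008e-07). Otospheres and CSE differed by 0.23, with a 95% interval of -0.17 to 0.64 (adjusted p = 0.560). In bulk RNA such as this, fewer cells that express a gene and less RNA per cell cannot be told apart.

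Lin28b had a different order: ESCs, then CSE, then otospheres. It read 9.97 and 12.16 in ESCs, 5.91, 4.99, 6.14 and 6.07 in otospheres, and 8.26, 9.02 and 7.91 in CSE, with no overlap between any of the groups. OS3 was not well above background on this probe, and the other otosphere arrays were. Otospheres were 6.14-fold lower than CSE (log2 difference -2.62, SE 0.52, adjusted p = 0.0132) and 39.1-fold lower than ESCs (-5.29, SE 0.59, adjusted p = 2.65e-04), and CSE was 6.36-fold lower than ESCs (-2.67, SE 0.62, adjusted p = 0.0114). Within slides, otospheres minus CSE was -3.19 on slide 1 and -1.81 on slide 2. The call against CSE was lost without CSE2 (-2.31, adjusted p = 0.0514) and in a plain linear model without moderation (adjusted p = 0.0618), and the call between CSE and ESCs was lost without ESC2 (-1.58, adjusted p = 0.0700). The other Lin28b probe reached the level of well above background on 0 of 6 otosphere arrays and, in CSE, on CSE2 alone. Its otospheres minus CSE difference was -0.37 (adjusted p = 0.690), and its otospheres minus ESCs difference was -2.15 (adjusted p = 0.00531). Dimmer otosphere arrays were also raised to the lowest signal that counts as well above background. Its ESC level was then 4.37-fold above that of otospheres.

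Trim71, a ubiquitin ligase and repressor of messages that is a classic let-7 target, had the largest fall of all main probes from ESCs to otospheres. It read 12.71 and 12.77 in ESCs, 5.50, 5.21, 5.81 and 5.73 in otospheres, and 5.84, 6.50 and 7.73 in CSE. The 2 ESC lines were nearly equal, and every CSE sample was above every otosphere sample, CSE1 only by a little. Otospheres were 144-fold lower than ESCs (-7.17, SE 0.44, adjusted p = 1.19e-05), CSE was 66.1-fold lower (-6.05, SE 0.47, adjusted p = 3.828e-05), and otospheres minus CSE was -1.13 (SE 0.39, adjusted p = 0.113). The last difference was -0.81 on slide 1 and -1.96 on slide 2. It passed the test in a fit blocked by slide (-1.24, adjusted p = 0.0394), with scaling to the 75th percentile (-2.60, adjusted p = 0.0412) and without CSE1 (-1.55, adjusted p = 0.0409). With every array as a separate sample it also passed (-1.10, adjusted p = 0.0436), but that fit counts the otosphere arrays averaged elsewhere as independent samples. Without CSE3 the difference was -0.61. Of the 6 otosphere arrays, 4 were well above background. The otospheres minus ESCs difference ran from -9.62 to -6.39 over the alternatives. The other Trim71 probe differed from ESCs by -3.93 in otospheres (adjusted p = 5.584e-06) and by -3.88 in CSE (adjusted p = 8.467e-06), and its otospheres minus CSE difference was -0.05 (adjusted p = 0.940). The -3.93 was a smaller fall than those of Lin28a, Lin28b, Mycn and Igf2bp1 on their main probes.

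**Figure D1:**
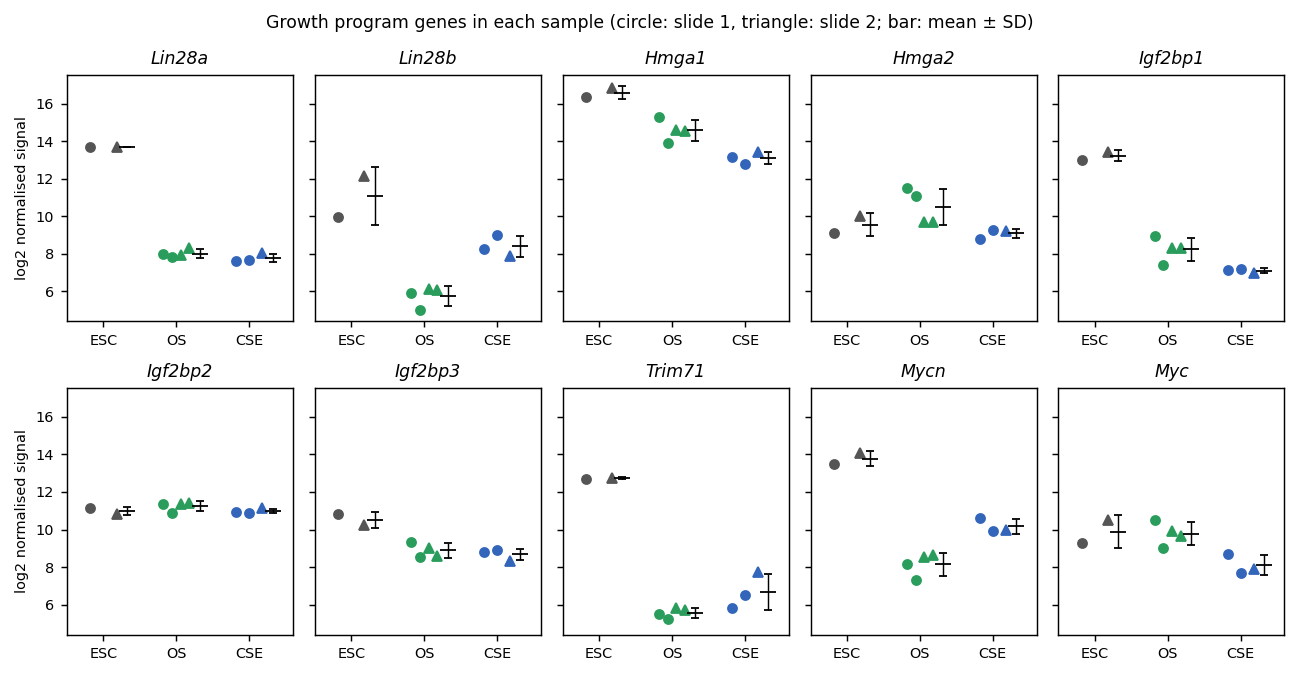
Each panel plots the log2 normalised signal of 1 gene's main probe in the 2 ESC, 4 otosphere (OS) and 3 CSE samples, circles for slide 1 and triangles for slide 2, with the group mean and SD as a bar. Lin28a, Trim71 and Igf2bp1 stand far higher in ESCs than elsewhere, Lin28b and Mycn step down from ESCs through CSE to otospheres, and Hmga2 is highest in the otosphere samples of slide 1.

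On its main probe, Hmga1 in otospheres lay between ESCs and CSE. It read 16.32 and 16.84 in ESCs, 15.30, 13.89, 14.57 and 14.52 in otospheres, and 13.13, 12.78 and 13.41 in CSE. The 3 groups do not overlap. Otospheres were 2.76-fold above CSE (1.46, SE 0.32, adjusted p = 0.0206) and 4.03-fold below ESCs (-2.01, SE 0.37, adjusted p = 0.00330), and CSE was 11.1-fold below ESCs (-3.48, SE 0.39, adjusted p = 2.481e-04). Within slides, otospheres minus CSE was 1.64 on slide 1 and 1.14 on slide 2. The call against CSE was lost without OS4 and OS5 (1.46, adjusted p = 0.0563), without CSE1 (1.47, adjusted p = 0.0753), without CSE2 (1.30, adjusted p = 0.0745), with the replicate number as a block (1.72, adjusted p = 0.0629) and in a plain linear model without moderation (adjusted p = 0.0703).

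The 3 Hmga1 probes carry accessions of different transcript variants, and they did not all move alike. The probe of NM_001166546 was 2.99-fold higher in otospheres than in CSE (1.58, SE 0.43, adjusted p = 0.0474), 8.15-fold lower than in ESCs (-3.03, adjusted p = 0.00166), and 24.3-fold lower in CSE than in ESCs. The probe of NM_001166537 read 6.90 and 6.57 in ESCs, 6.50, 6.10, 6.43 and 6.60 in otospheres, and 6.67, 6.01 and 6.70 in CSE. It was well above background on every array, and none of its 3 differences passed the test, with otospheres minus CSE at -0.05 (95% interval -0.55 to 0.45, adjusted p = 0.957). The RefSeq table also lists Hmga1b, a near copy of Hmga1 whose RNA a probe may share.

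Hmga2 was higher in every otosphere sample than in any CSE sample, on both of its probes, but most of the difference lay on slide 1. The main probe read 9.11 and 9.99 in ESCs, 11.48, 11.10, 9.67 and 9.67 in otospheres, and 8.80, 9.24 and 9.22 in CSE. OS1 with OS2 and OS3 exceeded both ESC lines, while OS4 with OS5 and OS6 lay between them. Otospheres minus CSE was 1.39 (SE 0.48, 2.62-fold, adjusted p = 0.112), otospheres minus ESCs 0.93 (SE 0.54, adjusted p = 0.253) and CSE minus ESCs -0.46 (SE 0.57, adjusted p = 0.618), and none of these passed the test. With the replicate number as a block, otospheres minus CSE was 2.27 and passed (adjusted p = 0.00806). That fit takes the difference from OS1, OS2 and OS3 alone, because no other group has the replicate numbers of OS4, OS5 and OS6. It also counts OS1 and OS2, averaged elsewhere, as independent samples. The other probe read 7.33 and 8.16 in ESCs, 9.35, 8.87, 7.99 and 7.85 in otospheres, and 6.75, 7.06 and 6.93 in CSE. Here the 3.03-fold difference between otospheres and CSE passed (1.60, SE 0.38, adjusted p = 0.0282). Within slides, otospheres minus CSE was 2.27 on slide 1 and 0.45 on slide 2 on the main probe, and 2.20 and 0.99 on the other. The term for the change of this difference between slides was -1.82 on the main probe (unadjusted p = 0.00323, limma adjusted p = 0.791). Slide, culture and array run cannot be told apart in it, since each otosphere sample was on 1 slide.

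The otosphere samples also differed among themselves in lists of other genes. The mean level of 18 proliferation genes was 11.11 in OS1 with OS2, 9.94 in OS3, 9.22 in OS4 with OS5 and 7.88 in OS6, against 9.56 to 10.09 in CSE and 12.20 to 12.72 in ESCs. The mean level of 11 mesenchymal markers was 11.60, 12.23, 10.44 and 8.20 in the same otosphere samples, against 12.07 to 12.57 in CSE and 6.63 to 7.00 in ESCs. Both lists, like Hmga2, were higher in the otosphere samples of slide 1 than in those of slide 2, and all 11 mesenchymal markers were well above background on some otosphere array. The mean level of 15 hair cell markers ran the other way, at 7.63, 7.29, 8.59 and 8.99 in these samples, against 9.25 to 9.48 in CSE. Hmga1 was highest in OS1 with OS2 as well but lowest in OS3. The part of these lists in the results was not tested.

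**Figure D2:**
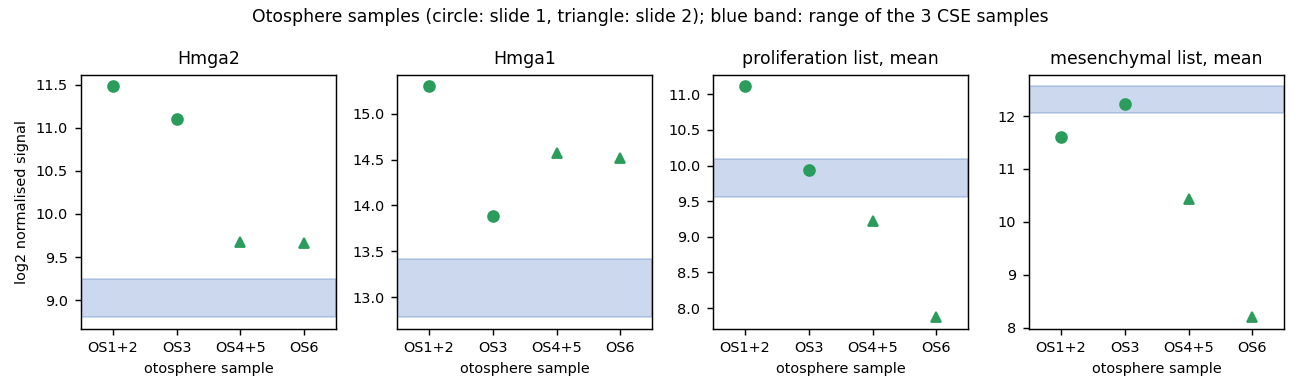
The panels plot log2 normalised signal for Hmga2, Hmga1 and the means of the proliferation and mesenchymal lists in the 4 otosphere samples, with a blue band for the range of the 3 CSE samples and separate vertical axes. Hmga2 runs from 11.48 to 9.67 and stays above the CSE band, while the proliferation mean runs from 11.11 to 7.88 and crosses it.

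Igf2bp1 and Igf2bp3 were lower outside ESCs, and Igf2bp2 passed the test in no comparison. Igf2bp1 read 13.02 and 13.45 in ESCs, 8.94, 7.42, 8.29 and 8.30 in otospheres, and 7.12, 7.22 and 6.98 in CSE. All otosphere samples lie above all CSE samples, OS3 by the least. Otospheres were 31.9-fold lower than ESCs (-5.00, SE 0.36, adjusted p = 2.649e-05) and CSE was 69.9-fold lower (-6.13, SE 0.38, adjusted p = 1.205e-05). Otospheres minus CSE was 1.13 (SE 0.32, adjusted p = 0.0549), just outside the threshold, with 1.01 on slide 1 and 1.31 on slide 2, and without OS3 it was 1.40 and passed (adjusted p = 0.00731).

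Igf2bp3 read 10.83 and 10.22 in ESCs, 9.36, 8.55, 9.02 and 8.61 in otospheres, and 8.79, 8.91 and 8.33 in CSE. Otospheres and CSE overlap, and both lie below ESCs. Otospheres were 3.12-fold lower than ESCs (-1.64, SE 0.30, adjusted p = 0.00332) and CSE was 3.60-fold lower (-1.85, SE 0.31, adjusted p = 0.00232), and otospheres minus CSE was 0.21 with a 95% interval of -0.39 to 0.81 (adjusted p = 0.776).

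Igf2bp2, the member best known from adult tissues and metabolism, read 11.13 and 10.82 in ESCs, 11.35, 10.88, 11.37 and 11.39 in otospheres, and 10.95, 10.88 and 11.13 in CSE. All 9 samples lie close together, with OS3 below the other otosphere samples. The 95% intervals were -0.15 to 0.67 for otospheres minus CSE, -0.20 to 0.74 for otospheres minus ESCs and -0.48 to 0.51 for CSE minus ESCs, so a 2-fold difference lies outside each of them. On the other probe otospheres minus CSE was 0.53 (95% interval 0.01 to 1.05, adjusted p = 0.215), and the otosphere samples, at 10.77, 10.42, 10.42 and 10.48, all lay above the CSE samples, at 10.04, 9.97 and 9.98.

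Myc and Mycn, transcription factors that drive ribosome production and cell growth, were opposed in otospheres. Mycn, known from neural and inner ear progenitors, read 13.50 and 14.05 in ESCs, 8.16, 7.29, 8.55 and 8.63 in otospheres, and 10.64, 9.91 and 9.98 in CSE. The groups do not overlap. Mycn was 4.05-fold lower in otospheres than in CSE (-2.02, SE 0.35, adjusted p = 0.00670), 49.1-fold lower than in ESCs (-5.62, SE 0.40, adjusted p = 2.413e-05), and 12.1-fold lower in CSE than in ESCs (-3.60, SE 0.42, adjusted p = 3.145e-04). Within slides, otospheres minus CSE was -2.55 and -1.39.

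Myc read 9.26 and 10.50 in ESCs, 10.50, 9.03, 9.92 and 9.63 in otospheres, and 8.72, 7.70 and 7.89 in CSE. The otosphere samples span the ESC lines, and every CSE sample lies below both groups, with CSE1 close to OS3. Myc was 3.18-fold higher in otospheres than in CSE (1.67, SE 0.42, adjusted p = 0.0373), with 1.55 on slide 1 and 1.89 on slide 2. It was 3.43-fold lower in CSE than in ESCs (-1.78, SE 0.51, adjusted p = 0.0279), and otospheres minus ESCs was -0.11 with a 95% interval of -1.20 to 0.98 (adjusted p = 0.898). The sign of the last difference changed between slides, from 0.50 on slide 1 to -0.72 on slide 2. The Myc call of otospheres against CSE was the least firm of the members: its adjusted p was 0.00703 to 0.133 over 20 alternatives and missed the threshold in 10. Those were without OS1 and OS2 (1.42), OS4 and OS5 (1.62), OS6 (1.71), CSE2 (1.47) or CSE3 (1.56), and with scaling to the 75th percentile (1.67), the replicate number as a block (1.91), the slide as a block (1.63), the plain linear model (adjusted p = 0.112) and the authors' log2 table. On that table the difference was 0.87 (adjusted p = 0.0780), smaller than the reported value by over 1.5 times. The CSE against ESC call was lost in 6, namely without ESC2 (-1.16), CSE2 (-1.58) or CSE3 (-1.67), on the authors' log2 table (-0.93, adjusted p = 0.0602), with the replicate number as a block (-1.48, adjusted p = 0.111) and in a plain linear model without moderation (adjusted p = 0.0776).

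Over the 10 main probes, 2 passed the test as higher in otospheres than in CSE (Hmga1 and Myc), where 4.84% of all 47997 probes tested did, and 2 as lower (Lin28b and Mycn), where 6.19% did. The median difference of the members was 0.25, against 0.02 over all probes. In otospheres against ESCs, 7 members were lower, where 15.6% of all probes were, and 0 were higher, where 12.1% were. By limma no member was higher at an unadjusted p under 0.05 either. With the replicate number as a block, which leaves OS4, OS5 and OS6 out of the difference, Hmga2 was higher (1.84, adjusted p = 0.0143). That fit counts otosphere arrays averaged elsewhere as independent samples. In CSE against ESCs, 8 members were lower, where 15.6% of all probes were, and 0 were higher, where 13.2% were, and 0 were higher at an unadjusted p under 0.05. The member medians were -3.50 and -3.07, against -0.03 and -0.06 over all probes. These comparisons share samples, so their counts are not independent of each other. The differences from ESCs that passed had the same sign on both slides for all of these members. By the F-test over the 3 groups, 8 members passed on their main probes, where 33.8% of all probes did. Hmga2 (adjusted p = 0.111) and Igf2bp2 (adjusted p = 0.457) did not. On their other probes, Hmga2 passed the F-test (adjusted p = 0.0267) and Igf2bp2 did not (adjusted p = 0.235). The dimmest Hmga1 probe did not pass it either (adjusted p = 0.599).

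Counted by samples alone, 4 members (Hmga1, Hmga2, Igf2bp1 and Myc) had every otosphere sample above every CSE sample, where 10.8% of all probes did, and 3 (Lin28b, Trim71 and Mycn) had every otosphere sample below, where 12.7% did. Against ESCs, 7 members had all otosphere samples below both lines, where 25.5% of all probes did, and 0 had them above, where 20.7% did. In CSE, 8 members lay wholly below both lines, where 28.5% of all probes did, and 0 above, where 23.7% did.

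**Figure D3:**
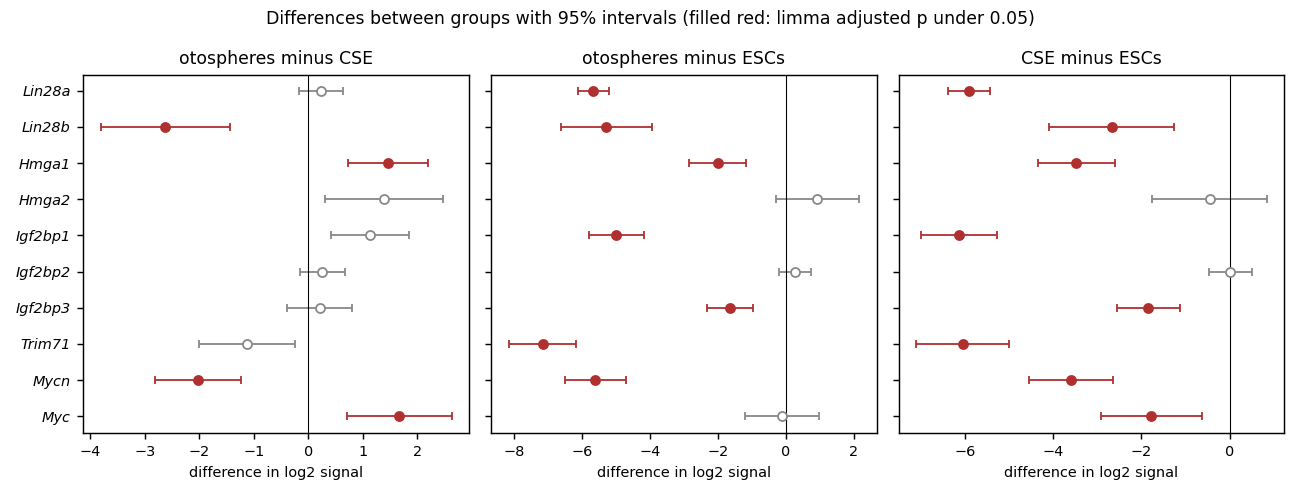
Points are the log2 differences of the 10 main probes between groups, with 95% intervals from the limma fit, and filled red points have an adjusted p under 0.05. Against CSE, otospheres have 2 genes above 0 and 2 below that passed, while 7 passed below ESCs in otospheres and 8 in CSE.

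**Figure D4:**
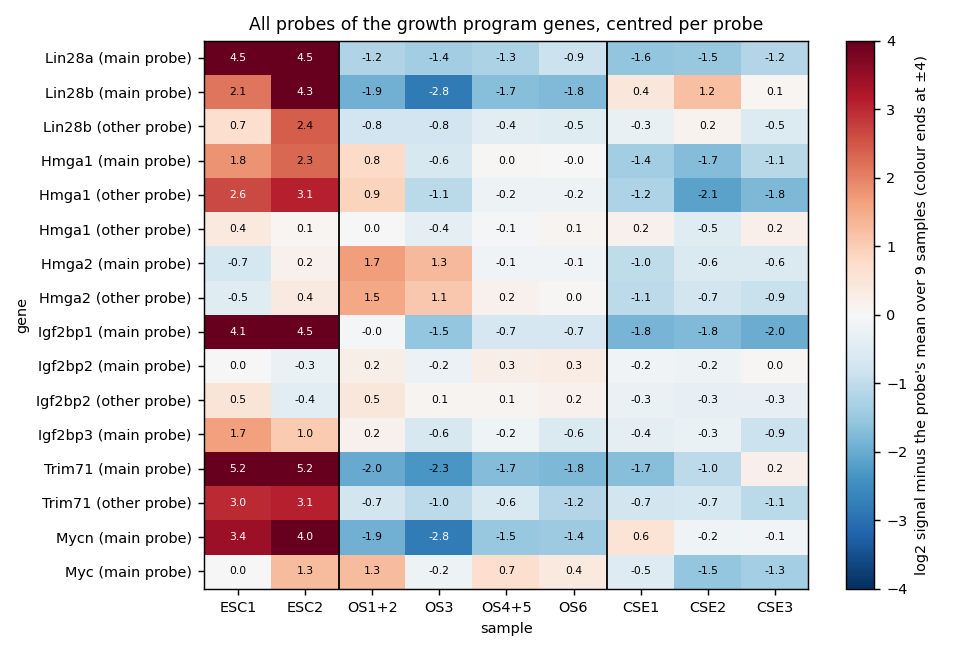
Rows are the 16 probes of the 10 genes and columns the 9 samples. Colours and numbers give the log2 signal minus the probe's mean over the samples, with the colour ending at 4 units on either side, and vertical lines separate ESC, otosphere and CSE samples. The probes of Hmga2 look alike across samples, while 1 of the 3 Hmga1 probes stays within 0.5 of its mean throughout.

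The members' promoters were looked up for the E-box CACGTG, which Myc and Mycn bind together with Max. RefSeq's table of 250 bases before to 50 after the gene start held 8 of the 10 members, without Igf2bp1 and Myc. Of these 8, Lin28b and Igf2bp3 held the E-box, which reads the same on both strands, and 7.15% of all 32851 promoters hold it. Both windows are printed from build GRCm38.p6, minus strand of the genome, with the E-box in capitals. The Lin28b match begins at base -49, counted from the first base of the gene as 0, and those of Igf2bp3 begin at bases -23 and 5.
Lin28b, chr10:45470152-45470451: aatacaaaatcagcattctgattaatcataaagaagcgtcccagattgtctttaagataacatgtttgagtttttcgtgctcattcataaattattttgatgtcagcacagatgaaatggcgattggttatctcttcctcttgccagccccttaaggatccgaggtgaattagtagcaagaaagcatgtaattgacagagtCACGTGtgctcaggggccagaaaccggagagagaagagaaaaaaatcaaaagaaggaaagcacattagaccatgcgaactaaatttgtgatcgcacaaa
Igf2bp3, chr6:49214905-49215204: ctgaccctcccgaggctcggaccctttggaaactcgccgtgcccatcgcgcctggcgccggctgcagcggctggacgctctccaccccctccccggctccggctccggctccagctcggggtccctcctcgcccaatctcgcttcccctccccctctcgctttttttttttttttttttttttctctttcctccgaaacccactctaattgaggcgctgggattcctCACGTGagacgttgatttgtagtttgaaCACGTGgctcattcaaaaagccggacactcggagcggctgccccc
A match is a run of letters and not a measured site. Lin28b was lower and Igf2bp3 did not pass the test in otospheres against CSE.

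Of 14 genes of let-7 processing and decay, 3 were lower in otospheres than in CSE, where 6.19% of all probes were. As higher, 0 passed, where 4.84% of all probes did. The list median was -0.20. At an unadjusted p under 0.05, 2 were higher and 4 lower by limma, and a plain linear model without moderation called 0 higher and 2 lower. Drosha, which cuts the primary transcript in the nucleus, was lower by 0.73 on the log2 scale, as 11.74 ± 0.26 in otospheres (SD, n = 4) against 12.47 ± 0.14 in CSE (SD, n = 3, adjusted p = 0.0329). Prkra, a partner of Dicer, differed by -0.63 (adjusted p = 0.0261), and Dis3l2, the nuclease that degrades precursors tailed after Lin28 binding, by -1.10 (adjusted p = 0.0395). Of the host transcripts of let-7, only Wdr82 and Huwe1 could be named on a probe, 2 of 11, and neither passed the limma test between otospheres and CSE, at -0.47 (adjusted p = 0.115) and -0.54 (adjusted p = 0.0898).

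Other known let-7 targets were split. Of 24 targets outside the members, otospheres had 3 above CSE, where 4.84% of all probes were, and 3 below it, where 6.19% were. The median of the targets was 0.17. The plain linear model called 3 higher and 0 lower. The highest was Thbs1, thrombospondin 1, a secreted matrix protein, at 14.94 ± 1.12 against 11.40 ± 0.61 (3.53, adjusted p = 0.00631). Ccnd1, cyclin D1, the cyclin of G1 phase, read 15.12, 14.43, 15.12 and 14.85 in otospheres against 13.06, 12.95 and 13.11 in CSE (1.84, adjusted p = 7.426e-04) and 12.74 and 12.47 in ESCs, so the otosphere samples exceeded all others. Arid3b, an AT-rich DNA-binding factor, was lower at -1.44 (adjusted p = 0.0339). Against ESCs, 6 targets were higher in otospheres, where 12.1% of all probes were, and 7 lower, where 15.6% were. Their median was 0.20.

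The partners of Myc were mostly level between otospheres and CSE. Of 17 tested genes of the Myc network, 1 was higher, where 4.84% of all probes were, and 2 were lower, where 6.19% were. The list median was -0.04. Mycl, the remaining Myc family gene, was lower in otospheres than in CSE, as Mycn was. It read 6.29, 6.15, 7.20 and 6.55 in otospheres and 8.78, 8.58 and 9.21 in CSE, a log2 difference of -2.31 (SE 0.30, adjusted p = 0.00159). Its ESC values were 9.49 and 8.82, and unlike Mycn it did not pass the limma test in CSE against ESCs (-0.30, adjusted p = 0.595). Mlx, a Max-like partner, was higher by 1.03 (adjusted p = 0.00820), and Ruvbl1, an ATPase that works with Myc, was lower at -0.86 (adjusted p = 0.0242). Max itself, at 12.54 in otospheres and 12.48 in CSE, differed by 0.05 (adjusted p = 0.953).

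Of 20 growth genes that Myc is known to activate (nucleolar proteins, ribosome assembly factors and enzymes of polyamine and nucleotide synthesis), 0 passed the limma test in either direction between otospheres and CSE. Of all probes, 4.84% passed as higher and 6.19% as lower. At an unadjusted p under 0.05, 3 of the 20 were higher and 1 was lower, and the plain linear model called 0 of them. Their median was 0.12, and the nearest to the threshold was Odc1, ornithine decarboxylase, at 0.73 (adjusted p = 0.0504). Against ESCs, 16 of the 20 were lower in otospheres (median -1.69) and 15 in CSE (median -1.93), and 0 were higher, also at an unadjusted p under 0.05 by limma and by the plain linear model. The proliferation list gave 0 of 18 in either direction between otospheres and CSE, also at an unadjusted p under 0.05. Against ESCs, 15 of the 18 were lower in otospheres and 13 in CSE (8 and 6 by the plain linear model). By limma, 15.6% of all probes were lower than in ESCs in otospheres, and 15.6% in CSE.

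The insulin-like growth factor genes, whose messages the Igf2bp proteins bind in part, gave 2 higher and 1 lower of 20 in otospheres against CSE (1 and 0 by the plain linear model). Of all probes, 4.84% were higher and 6.19% lower by limma. The list median was -0.12. Eif4ebp1, a brake on cap-dependent translation under mTOR control, was 2.80 higher (adjusted p = 0.0150), but its level ran from 11.97 in OS3 to 14.53 in OS6. Igf2r, the receptor that clears Igf2, was 1.66 higher, at 13.12, 12.95, 13.15 and 12.86 against 11.61, 11.12 and 11.35 (adjusted p = 5.248e-04). Igfbp3, a binding protein that sequesters the ligands, was lower at -2.05 (adjusted p = 0.0338). Igf1 and Igf2 differed by -2.84 (adjusted p = 0.106) and -1.46 (adjusted p = 0.125). Igf1 read 11.23, 12.69, 10.52 and 7.61 in the otosphere samples. All of these cultures were fed IGF1 protein, and its part in the differences was not tested. Against ESCs, 9 of the 20 were higher and 1 lower in otospheres, and 11 higher and 2 lower in CSE. Of all probes, 12.1% were higher and 15.6% lower in otospheres, and 13.2% and 15.6% in CSE.

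**Figure D5:**
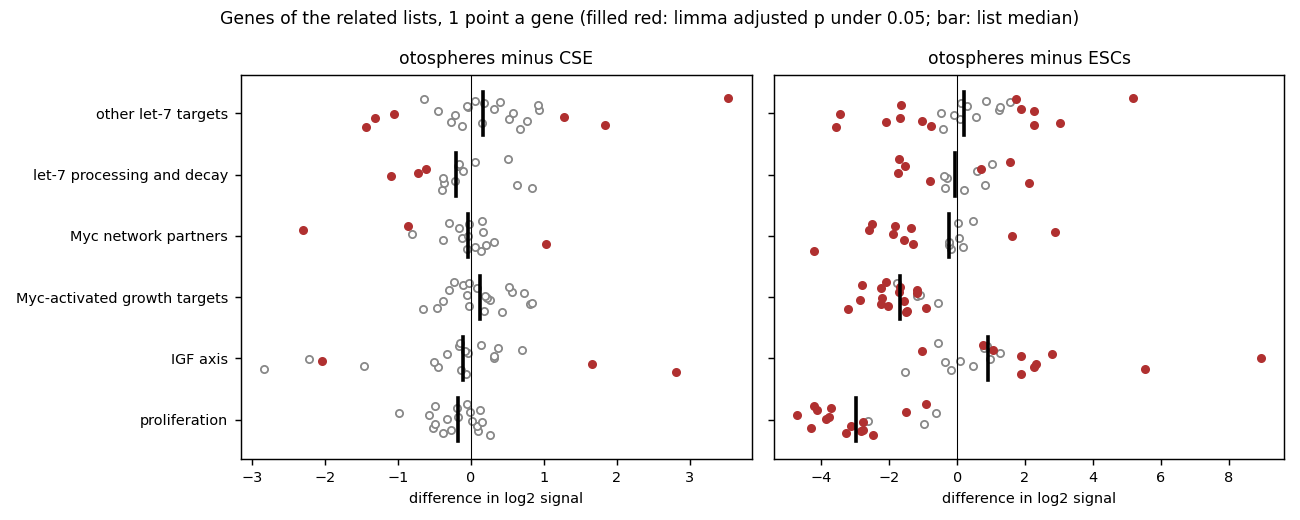
Each point is the log2 difference of 1 gene by its brightest probe, grouped by list, for otospheres minus CSE on the left and otospheres minus ESCs on the right, filled red where the limma adjusted p is under 0.05, with black bars for list medians. The growth targets of Myc and the proliferation list sit near 0 against CSE, with medians of 0.12 and -0.19, and below 0 against ESCs, with medians of -1.69 and -2.98.

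Lists of other cell types also moved between CSE and otospheres, in the direction of Lin28b and Mycn. The mean level of 13 neuronal markers was 7.63 to 7.90 in otospheres, 10.83 to 11.89 in CSE and 9.48 to 9.49 in ESCs. Of the 13, 11 were lower in otospheres than in CSE. For this and the lists below, 6.19% of all probes were lower and 4.84% higher. The neuronal genes with the largest falls were Stmn2 (-7.69), Nefh (-5.83) and Nefl (-5.48). Supporting cell markers (12 of 15 lower, led by Hes5 at -7.37, Fabp7 at -6.91 and Gjb6 at -4.11) and hair cell markers (7 of 15 lower and 1 higher, with Pvalb at -3.79, Atoh1 at -3.14 and Ocm at 3.40) fell as well. So did 7 of 11 endothelial markers (Cldn5 at -6.23, Cd93 at -5.79, Esam at -3.85), 8 of 11 macrophage markers (Cx3cr1 at -4.66, C1qc at -4.07, Tyrobp at -3.98), 5 of 9 erythroid markers (Hbb-bt at -9.65, Hba-a2 at -9.63, Hba-a1 at -8.79) and 5 of 11 glial markers (S100b at -4.12 and Foxd3 at -3.02 among them, with 1 higher). Among 11 mesenchymal markers only Col1a1 passed (-4.01), and among 12 pluripotency markers only Esrrb (-3.52). The ranges of the mean levels in otospheres and CSE were 9.01 to 9.53 and 11.83 to 12.12 for supporting cells, 7.29 to 8.99 and 9.25 to 9.48 for hair cells, 6.31 to 7.12 and 9.06 to 9.95 for endothelium, 7.03 to 7.47 and 9.30 to 9.50 for macrophages, 6.48 to 6.74 and 10.75 to 11.23 for erythroid cells, and 8.58 to 9.47 and 10.12 to 10.56 for glia. The part of these cell types in the Lin28b, Mycn and Mycl results was not tested.

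Genes with the pattern most like a member were found over the 9 samples by the root mean square difference of the centred log2 signals, among 16749 named genes. For Lin28a they were Dppa4 (0.294), Zfp819 (0.305) and Phlda2 (0.323), against a spread of Lin28a itself of 2.41. For Myc they were Gm5039 (0.299), Stk10 (0.331) and Gclm (0.337), with a spread of Myc of 0.960. For Hmga2 they were Hgd (0.337), Defb6 (0.386) and Tnfrsf26 (0.388), with a spread of 0.863, and their group means of 5.0 to 6.6 are much lower signals. For Igf2bp2, which hardly varied (spread 0.216), they were Napa (0.0762), Vmn1r58 (0.0893) and Vmn1r168 (0.0895). The 9 samples share 2 slides and 3 groups, and each value rests on those 9 points.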

How the data were processed

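Per the file headers, the deposited scanner files hold median signal intensity and local background of each spot, made by Feature Extraction 10.7.3.1. The authors also deposited a log2 table, which they background-corrected, quantile-normalized and filtered with limma, and it served as an alternative. RNA input was 50 or 100 ng.

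For 11 arrays, limma 3.58.1 under R 4.3.3 corrected the intensities for background (normexp, offset 16), took log2 and applied quantile normalization. Control and outlying spots were left out, and spots of a probe were averaged. Kept were 47997 of 55681 probes, which on 2 or more arrays exceeded the 95th percentile of 308 negative controls by 10%. RefSeq accessions named 24479 of the kept probes, covering 18565 genes. No spot was saturated. The number of arrays limits the precision.

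A limma model with 1 mean for each of 3 groups was fitted to 9 samples, with Benjamini-Hochberg adjustment over all kept probes and a threshold of 0.05. The fit was also run on simulated data with independent noise of equal spread in all groups. Those data had no slides and no unequal spreads, so the run did not test the fit under them. Replicate numbers of the labels did not pair samples (correlations of same-numbered arrays -0.392 to 0.356 over 7 pairs). Used as a block, they leave OS4, OS5 and OS6 without an array of another group, so those arrays do not enter the differences of that fit. The same fit takes every array as a separate sample. The members, the lists and the tests were chosen with earlier results of these data known. From each list the text names the 3 genes with the largest difference between otospheres and CSE among those that passed. Others it names, Nanog, Huwe1, Wdr82, Max, Odc1, Igf1 and Igf2, were chosen after their values were seen. The value of 1 gene that this rule names is not reported here. Alternatives were other offsets (0 and 50), scaling of the scanner's processed intensity to the 75th percentile, the deposited log2 table, the filter (3 arrays or none), arrays as separate samples, the replicate number or the slide as a block, only the compared groups, a plain linear model, other probes and leaving out each sample.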

Additional observations from a re-analysis of the deposited data

Results flagged for a closer look

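Igf2bp2 had a sample apart from the rest of its group on each of its probes. On the main probe OS3 read 10.88 while the other otosphere samples read 11.35 to 11.39, a gap of 0.917 of the group's range and above the 95% critical value of Dixon's test for 4 samples. On the other probe OS1 with OS2 read 10.77 while the others read 10.42 to 10.48, a gap of 0.836 of the range. The 2 probes set apart different samples. Chance sets apart about 1 in 20 groups, and 16 probes were examined.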

How the results depend on the processing

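Over 20 alternatives and the 30 differences of the 10 main probes, 560 of 600 values kept their direction and their side of the threshold, 25 lost the call, 8 gained it and 7 changed sign. Those 7 sign changes were in differences near 0 that had not passed the test. Igf2bp2 in CSE minus ESCs was -0.34 with scaling to the 75th percentile, -0.35 on the other probe and -0.14 to 0.17 over leave-outs, with -0.14 without ESC2 and -0.06 without CSE3. Myc in otospheres minus ESCs was 0.037 with every array separate, 0.43 with the replicate block and -0.73 to 0.51 over leave-outs, with 0.51 without ESC2 and 0.14 without OS3. Apart from these, Hmga1 in otospheres minus CSE, which had passed, was -0.048 on the probe of NM_001166537. With scaling to the 75th percentile the median over all probes was -0.31 in otospheres minus ESCs and -0.28 in CSE minus ESCs, where it was -0.03 and -0.06 as reported.

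Mycn against CSE was called in every alternative (adjusted p 0.0011 to 0.0369), Lin28b in 18 of 20 (0.00229 to 0.0618), Hmga1 in 15 (0.00423 to 0.0753) and Myc in 10. Members higher in otospheres than in CSE numbered 1 with scaling to the 75th percentile, the authors' table, the slide as a block or the replicate block (Hmga2 there, and neither Hmga1 nor Myc). They numbered 0 in the plain linear model, and 0 to 3 over leave-outs, with 0 without OS4 and OS5 or without CSE2. Over all 47997 probes, calls as higher numbered 2321 as reported and 1490 in the plain linear model. They numbered 1412 without OS4 and OS5 and 1534 without CSE2. Members lower than in CSE numbered 1 in the plain linear model. They numbered 3, with Trim71 added, with scaling to the 75th percentile, the slide as a block or every array separate. Over leave-outs they numbered 1 to 3, with 1 without CSE2 and 3 without CSE1. Calls as lower over all probes numbered 2973 as reported, 2074 in the plain linear model, 2370 without CSE2 and 1664 without CSE1. Members higher than in ESCs numbered 1 under the replicate block (Hmga2), where the otosphere differences rest on OS1, OS2 and OS3 alone, each counted as a sample. Under that block Hmga1 was no longer called below ESCs (-1.59, adjusted p = 0.0735). The causes were not tested. A leave-out leaves 1 ESC array in 2 cases, which the fit assumes to vary like the other groups.

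Few arrays per group and dim probes (Lin28b and Trim71 in otospheres) limit what these differences can show.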
